A study of Mus musculus with 55 samples.

Results

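The genes of the mitochondrial genome were followed across the bone marrow stem and progenitor cells of WT and Tet2-/- mice. They were taken as every row of the main count table whose symbol begins with mt-, which gave 37 of 55421 genes, made up of 13 protein genes, 2 rRNA genes and 22 tRNA genes. The rule reads the symbol alone. All 37 genes had counts, and 33 of them had at least 1 count in every one of the 46 libraries of that table.

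RNA of 6 populations sorted from bone marrow was sequenced to ask what changes when Tet2, an enzyme that oxidises methylated cytosine in DNA, is lost. The populations were long-term and short-term hematopoietic stem cells (LT-HSC and ST-HSC), common myeloid progenitors (CMP), granulocyte-macrophage progenitors (GMP), megakaryocyte-erythroid progenitors (MEP) and common lymphoid progenitors (CLP). There were 4 Tet2-/- libraries of every population, 3 WT libraries of LT-HSC and of ST-HSC, and 4 WT libraries of each other population. The mice were C57BL/6, the Tet2-/- mice carried floxed Tet2 alleles with Mx1-Cre, Cre was induced by poly(I:C) at 4 weeks of age, and cells were taken 16 weeks later. Mx1-Cre is switched on by interferon in many cell types, so deletion is not limited to stem cells, and whether the WT mice also received poly(I:C) is not given in the sources used here. The titles number the libraries (WT2 to WT5 and KO2 to KO5) without saying what a number marks. Libraries of different populations with the same number and genotype were read as coming from 1 mouse, which no source used here states, and every comparison by mouse rests on that reading. A second table held 9 further LT-HSC libraries, of WT mice, Sting-/- mice and Tet2;Sting DKO mice with 3 libraries per genotype. The study's legends give mice as its units of replication. Sting is an adaptor of the response to DNA in the cytosol.

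The labels give 200 sorted cells, and the methods section about 300 per group. Library totals ran from 50458473 to 102148079 counts. Levels are given as CPM, a gene's counts over all counts of the library. All listed genes of the GMP and MEP gates, such as Mpo and Gata1, were highest where the labels place them. Exceptions were Hlf and Flt3, which were highest in ST-HSC, and Ly6a, which was highest in CLP. Mean Tet2 RNA was higher in Tet2-/- than in WT libraries in LT-HSC (25.8 ± 14.8 CPM (SD, n = 4) against 14.6 ± 2.16 (n = 3)), GMP and CLP. It was lower in ST-HSC (20.01 ± 7.48 CPM (n = 4) against 25.1 ± 13.7 (n = 3)), CMP and MEP. The counts per gene do not resolve the deleted exon, so they are no check of the deletion. In CLP, 5 B-cell genes summed to between 103670 and 159235 CPM in WT libraries and to 721, 41444, 98857 and 96000 CPM in Tet2-/- replicates 2, 3, 4 and 5, and the part of this in the CLP results was not tested. Of the listed CLP genes, Il7r (397 CPM), Dntt (444 CPM), Rag1 (3.33 CPM) and Ebf1 (4.86 CPM) had their highest mean in CLP, Rag1 and Ebf1 at low levels. Loci that hold copies of nuclear rRNA (Gm42418, AY036118 and Gm26917) summed to 59.8 to 77.7 CPM in 3 libraries (Tet2-/- LT-HSC 4 and 5 and Tet2-/- ST-HSC 4) and to 6732 CPM or more in the other 43.

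Mitochondrial DNA is a small circle that keeps genes for core subunits of the respiratory chain, for the RNAs of its own ribosome and for its own set of tRNAs. Both strands are copied into long transcripts, and the tRNAs that lie between most genes mark the places where these are cut into single RNAs. Blood stem cells are known to lean on glycolysis, and the erythroid line raises mitochondrial work as it prepares to make haem. The 13 proteins belong to complex I (Nd1 to Nd6 and Nd4l, which take electrons from NADH), complex III (Cytb), complex IV (Co1 to Co3, which pass electrons to oxygen) and complex V (Atp6 and Atp8, the ATP synthase).

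By the mm10 annotation used here (GENCODE vM21), 28 of the 37 genes lie on the plus strand and 9 on the minus strand, namely mt-Nd6 and 8 tRNA genes. The stretch that joins mt-Rnr2, the tRNA gene mt-Tl1 and mt-Nd1 (chrM:2664-2762, plus strand) is shown because the tRNA gene and mt-Nd1 were higher in MEP while mt-Rnr2 before them did not pass the test, with the 75 bases of the tRNA gene in capitals. The 43 bases that mt-Atp8 and mt-Atp6 share (chrM:7927-7969, plus strand) are shown in capitals within the stretch chrM:7917-7979 because reads there can belong to either gene. The longest runs of A in the rRNA genes are in capitals because the libraries were primed with oligo-dT. The last bases of mt-Co3 (chrM:9367-9390) and mt-Cytb (chrM:15265-15288) end in a lone T, in capitals, that the A tail completes to a stop codon.
mt-Rnr2/mt-Tl1/mt-Nd1: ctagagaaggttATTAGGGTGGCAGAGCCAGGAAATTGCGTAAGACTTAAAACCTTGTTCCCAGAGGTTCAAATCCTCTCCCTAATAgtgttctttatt
mt-Atp8/mt-Atp6: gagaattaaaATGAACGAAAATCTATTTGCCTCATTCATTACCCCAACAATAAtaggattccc
mt-Rnr1 longest A run: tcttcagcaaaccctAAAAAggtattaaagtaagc
mt-Rnr2 longest A run: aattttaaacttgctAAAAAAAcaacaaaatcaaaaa
mt-Co3 end: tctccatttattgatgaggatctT
mt-Cytb end: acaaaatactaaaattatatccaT

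The run in mt-Rnr1 is 5 bases long (within chrM:690-724) and that in mt-Rnr2 is 7 bases long (within chrM:1473-1509). The most abundant tRNA gene of these libraries, mt-Tn (chrM:5089-5159, minus strand), and mt-Td (chrM:6942-7011, plus strand), whose call in CLP rested on 1 library, follow 5′ to 3′ with no base marked.
mt-Tn: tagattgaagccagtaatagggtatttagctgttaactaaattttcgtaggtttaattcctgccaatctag
mt-Td: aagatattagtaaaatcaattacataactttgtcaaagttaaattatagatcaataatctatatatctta

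The 37 genes differed over 4 orders of magnitude in level per length. In CPM per kb of gene, averaged over the 46 libraries, mt-Rnr2 (the large ribosomal RNA, chrM:1094-2675) stood at 14608 and mt-Co1 (chrM:5328-6872) at 9448. The next were mt-Cytb at 7783, mt-Atp6 at 7599, mt-Nd1 at 6545, mt-Co3 at 5863, mt-Atp8 at 4553 and mt-Co2 at 3872. The small ribosomal RNA mt-Rnr1 (chrM:70-1024), which is copied ahead of mt-Rnr2 on the same transcript, stood lower, at 2695. The other complex I genes followed, with mt-Nd4 at 2452, mt-Nd4l at 1496, mt-Nd5 at 1320, mt-Nd2 at 906, mt-Nd6 at 866 and mt-Nd3 at 692. Every tRNA gene averaged 168 CPM per kb or less, and the 5 with the most counts were mt-Tn (11.9 CPM), mt-Te (10.02 CPM), mt-Tc (8.65 CPM), mt-Tl1 (8.51 CPM) and mt-Tm (8.06 CPM). mt-Rnr2 ranked at the top in 39 libraries, mt-Co1 in 6 and mt-Nd1 in 1, and mt-Rnr1 ranged from rank 3 to rank 14. The levels plotted in map order show that the order of the genes was much the same in the 6 populations, with the rRNA genes and a few tRNA genes spread the most.

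**Figure D1:**
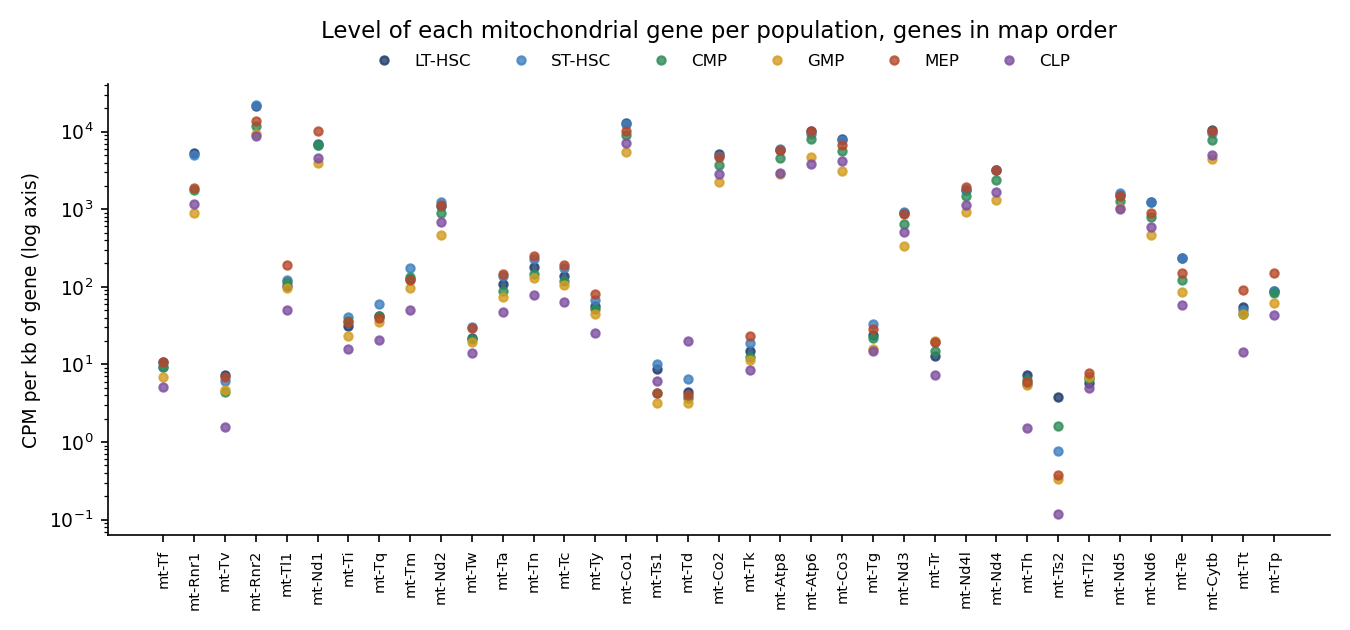
Level of each of the 37 mitochondrial genes in CPM per kb of gene (vertical log axis), genes in map order, with 1 point per population (the mean of its WT and Tet2-/- group means). The 22 tRNA genes lie below the other 15, mt-Rnr2 and mt-Co1 are at the top, and the LT-HSC and ST-HSC points stand above the other populations at mt-Rnr1.

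The share of all counts that came from the mitochondrial genes was highest in the stem cells and lowest in GMP and CLP. In LT-HSC it ran from 8.02% over a median of 9.50% to 14.5% (n = 7), and in ST-HSC from 8.73% over 10.0% to 13.1% (n = 7). In MEP it ran from 6.85% over 9.07% to 9.74%, and in CMP from 5.94% over 7.21% to 8.37% (n = 8 each). The LT-HSC and ST-HSC ranges lay above every GMP library, and GMP did not overlap CMP or MEP either. In GMP the share ran from 3.64% over 4.67% to 5.09%, and in CLP from 2.41% over 3.67% to 12.5% (n = 8 each). The widest 95% Wilson interval of a library's share was 0.0172 percentage points, so counting error was far below the spread between libraries. In bulk libraries of sorted cells, a larger share from fewer mitochondrion-rich cells and more mitochondrial RNA per cell cannot be told apart.

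Between LT-HSC and GMP the share differed 2.26-fold. In an exact two-sided permutation test of libraries within genotype, 13 of the 15 pairs of populations had an adjusted p under 0.05. With Tet2-/- libraries only, 0 of the 15 passed by the same exact permutation test (lowest adjusted p 0.0536), but 4 against 4 libraries cannot go below 0.0286, so 9 pairs would have to reach it for any to pass. There 8 pairs did, all without overlap, and LT-HSC against GMP was 2.44-fold. With libraries of the same mouse paired, 10 pairs passed, and those of LT-HSC with MEP, ST-HSC with MEP and CMP with CLP did not. LT-HSC and ST-HSC were not told apart (log2 difference 0.00, exact p = 0.97), and neither were GMP and CLP (0.10, exact p = 0.70), a difference that turned to -0.35 without immunoglobulin genes. CMP stood 1.55-fold above GMP and MEP 1.22-fold above CMP. The comparisons with CLP depended on what the other counts were. Immunoglobulin genes took 25.4% to 41.8% of the counts in WT CLP and 0.1% to 29.0% in Tet2-/- CLP, and with them left out of the total CMP and CLP no longer passed (0.28, adjusted p = 0.176 by the exact permutation test), and LT-HSC against MEP moved to an adjusted p of 0.05, which is not under the threshold, by the same exact permutation test. When only the 13 protein genes were counted, LT-HSC against MEP (0.04) and ST-HSC against MEP did not pass, and the direction of the latter turned (-0.0044, exact permutation p = 0.972).

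In every population the mean share was higher in Tet2-/- than in WT libraries. The 3 WT LT-HSC libraries held 8.02%, 9.50% and 9.12%, and the 4 Tet2-/- LT-HSC libraries 8.82%, 11.4%, 13.96% and 14.5%. In ST-HSC, WT libraries held 8.73%, 9.02% and 8.92% and Tet2-/- libraries 10.0%, 13.1%, 12.8% and 11.6%. The LT-HSC groups overlapped by 1 Tet2-/- library, replicate 2, while all Tet2-/- ST-HSC libraries lay above all WT ones. CMP WT libraries held 6.57%, 6.08%, 6.08% and 5.94% against 7.85%, 8.16%, 8.04% and 8.37% in Tet2-/-. GMP WT libraries held 4.45%, 3.64%, 4.60% and 4.36% against 4.74%, 5.09%, 4.91% and 4.86%. Neither CMP nor GMP overlapped between genotypes. The summed B-cell genes did not overlap there either. They stood at 174 to 258 CPM in WT and 109 to 132 CPM in Tet2-/- CMP, and at 141 to 184 and 121 to 136 CPM in GMP. They overlapped in LT-HSC, ST-HSC and MEP, and their part in the share was not tested. MEP WT libraries held 9.18%, 8.93%, 7.33% and 6.85% against 8.96%, 9.44%, 9.74% and 9.18%, which overlapped. CLP WT libraries held 4.58%, 2.58%, 2.41% and 2.89% against 12.5%, 7.82%, 3.11% and 4.23%, which overlapped and spread widely in Tet2-/-. In the same Tet2-/- CLP libraries, in order of replicate, 5 macrophage genes summed to 143, 34.1, 0.06 and 27.9 CPM, against at most 10.7 CPM in WT CLP. The 5 T and NK cell genes summed to 842, 374, 128 and 251 CPM there and to 67.4 to 221 CPM in WT CLP. The part of these cells in the CLP share was not tested.

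The difference of the mean log2 shares was 0.43 in LT-HSC, 0.41 in ST-HSC, 0.39 in CMP, 0.21 in GMP, 0.22 in MEP and 0.99 in CLP. It was 0.13 in GMP without WT replicate 3, 0.14 in MEP without WT replicate 5 and 0.64 in CLP without Tet2-/- replicate 2. The exact two-sided permutation p was 0.0286 in CMP and GMP, the smallest that 4 against 4 libraries allow. It was 0.0571 in ST-HSC, 0.0857 in MEP and 0.114 in LT-HSC and CLP. The summed level of 5 stress genes (Fos, Jun, Egr1, Hspa1a and Hspa1b) also differed between the genotypes, and its part in these results was not tested. It was lower in every Tet2-/- than in every WT library of CMP (326 to 806 against 858 to 1513 CPM), GMP (425 to 954 against 1173 to 1808 CPM) and CLP (1118 to 3773 against 5331 to 7786 CPM). It overlapped in LT-HSC (1125 to 2063 in Tet2-/- against 905 to 1514 CPM in WT), ST-HSC (991 to 1878 against 757 to 1397 CPM) and MEP (113 to 284 against 227 to 333 CPM). After adjustment over the 6 populations no p of these exact permutation tests was under 0.05, the lowest being 0.0857, where 4 of the 6 would have to reach 0.0286 for any to pass and 2 did. Without the 2 LT-HSC libraries of few nuclear rRNA counts (Tet2-/- replicates 4 and 5) the LT-HSC difference was 0.18, and without replicate 4 the ST-HSC difference was 0.37. With the nuclear rRNA loci left out of the total and all libraries kept, the LT-HSC difference was 0.46 and the groups did not overlap (adjusted p 0.0857 by the exact permutation test). With immunoglobulin genes out of the total the CLP difference was 0.61.

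Summed up by mouse over the populations, with same-numbered libraries read as 1 mouse, the share was 1.37-fold higher in the 4 Tet2-/- mice than in the 4 WT mice. The mean log2 deviation from the population mean was 0.26, 0.31, 0.13 and 0.18 for KO2 to KO5 and -0.09, -0.25, -0.32 and -0.26 for WT2 to WT5. All 4 Tet2-/- mice lay above all 4 WT mice, with an exact permutation p of 0.0286 over 70 splits, which is the smallest possible with 8 mice. It was 1.25-fold higher without CLP and 1.30-fold higher without immunoglobulin genes, at the same exact permutation p. With only the populations that have 4 libraries of each genotype the log2 difference was 0.45 and the exact permutation p 0.0571. The effect in no population was shown to differ from the mean of the other 5, as the adjusted p of those 6 exact permutation tests ran from 0.343 to 1. In edgeR the interaction of genotype and population passed for 0 of the 37 mitochondrial genes, against 2.65% of all 22360 genes tested.

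**Figure D2:**
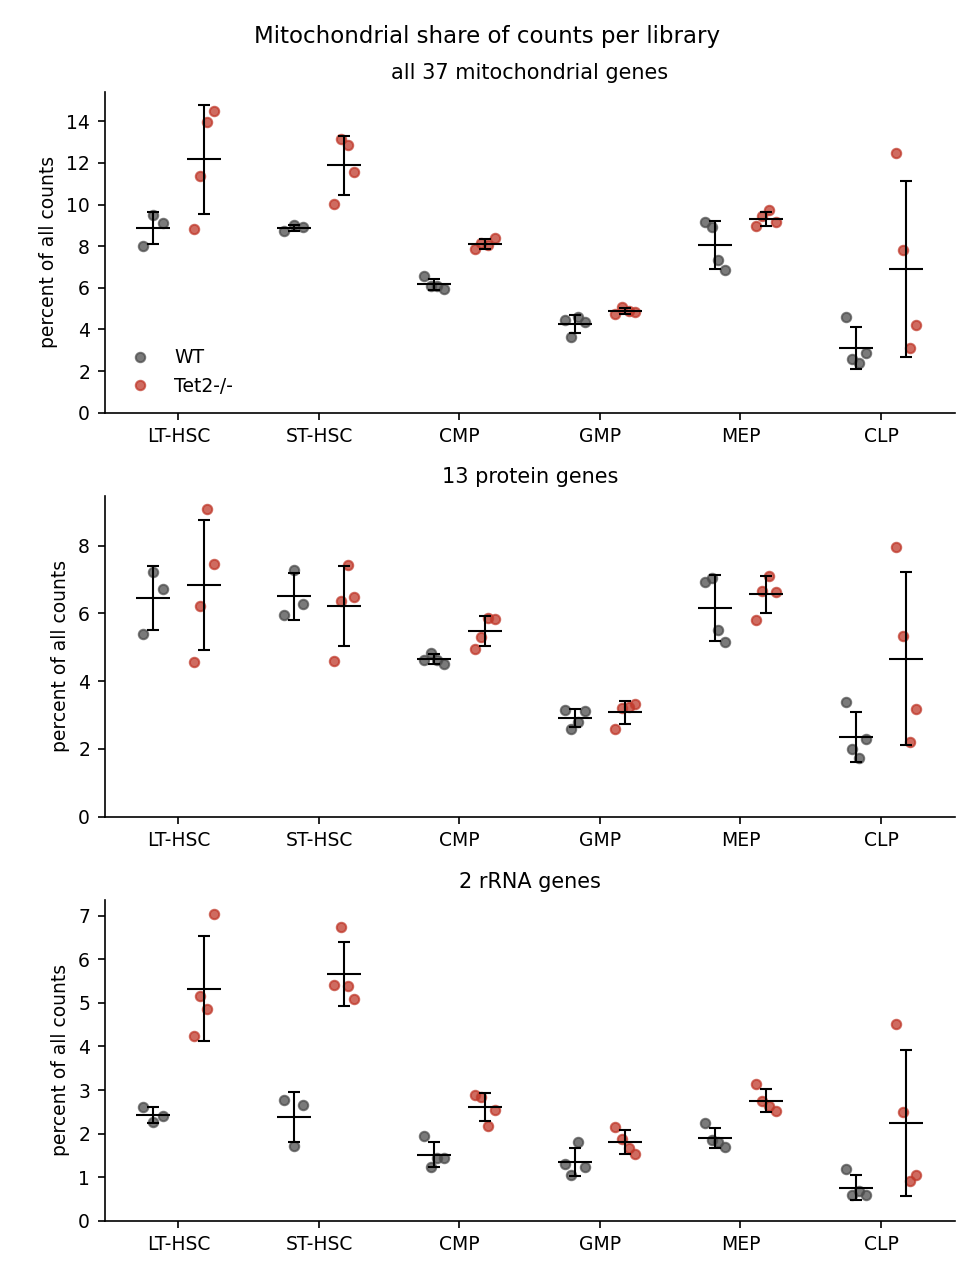
Percent of all counts per library from the 37 mitochondrial genes (top), the 13 protein genes (middle) and the 2 rRNA genes (bottom), by population, with WT in grey and Tet2-/- in red, and bars for mean and SD. The 37-gene share separates the genotypes in ST-HSC, CMP and GMP, the protein genes separate them in CMP only, and the rRNA genes separate them in LT-HSC, ST-HSC, CMP and MEP.

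On the log2 scale the 2 rRNA genes differed more between genotypes than the protein genes in all 6 populations. Counted alone, the 13 protein genes differed by 0.05 in LT-HSC, -0.08 in ST-HSC, 0.24 in CMP, 0.08 in GMP, 0.10 in MEP and 0.87 in CLP on the log2 scale. CMP was the only population in which the protein-gene shares of the genotypes did not overlap. The 2 rRNA genes alone differed by 1.11 in LT-HSC, 1.27 in ST-HSC, 0.80 in CMP, 0.44 in GMP, 0.54 in MEP and 1.32 in CLP. That split was chosen after the data were seen. In LT-HSC, ST-HSC, CMP and MEP every Tet2-/- library had a higher rRNA share of all counts than every WT library, each with an adjusted p of 0.0429 by the exact permutation test. In MEP the summed erythroid genes (globins and Alas2) also did not overlap, at 152 to 427 CPM in WT and 76.1 to 106 CPM in Tet2-/-. They overlapped in every other population, and their part in the result was not tested. Without the 3 libraries of few nuclear rRNA counts the rRNA difference was 0.95 in LT-HSC and 1.29 in ST-HSC, still without overlap. GMP and CLP overlapped, with an adjusted p of 0.0857 by the same exact permutation test. By mouse, the rRNA genes were 1.85-fold and the protein genes 1.18-fold higher in Tet2-/- mice, both with the exact permutation p of 0.0286. The protein-gene difference rested on CLP, as it was 1.07-fold without CLP (exact permutation p = 0.543) and 1.12-fold with immunoglobulin genes out of the total (exact permutation p = 0.0857). The rRNA difference was 1.73-fold and 1.77-fold in the same settings, each at an exact permutation p of 0.0286. In MEP the libraries numbered 2 and 3 also differed from those numbered 4 and 5 in both genotypes. B-cell genes stood there at 6.003 to 7.73 CPM against 18.3 to 19.8 CPM. Immunoglobulin genes divided the same numbers without overlap in LT-HSC, at 0.00027% to 0.0016% of all counts against 0.0040% to 0.0052%. They did so in ST-HSC too, and within each genotype in CMP, but not in WT GMP or WT CLP. The 2 pairs of numbers were therefore compared apart, a split chosen after the data were seen. The rRNA difference was positive in both pairs in all 6 populations, from 0.52 (MEP) to 2.01 (CLP) in numbers 2 and 3 and from 0.10 (GMP) to 1.28 (LT-HSC) in numbers 4 and 5. The protein-gene difference was -0.23 in LT-HSC, -0.28 in ST-HSC and -0.17 in MEP in numbers 2 and 3, but 0.29, 0.15 and 0.37 in numbers 4 and 5. The 37-gene difference in MEP was 0.02 in numbers 2 and 3 and 0.42 in numbers 4 and 5. With at most 2 libraries of a genotype in each pair, these were not tested one by one.

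The rRNA genes took 27.6% ± 4.55 (SD, n = 3) of the mitochondrial counts in WT LT-HSC and 44.2% ± 6.42 (n = 4) in Tet2-/- LT-HSC. In ST-HSC the values were 26.8% ± 6.77 (n = 3) and 47.9% ± 5.82 (n = 4), and in MEP 23.7% ± 1.90 and 29.7% ± 3.66 (n = 4 each). In these 3 populations the genotypes did not overlap. In CMP the values were 24.5% ± 3.76 and 32.3% ± 4.38, in GMP 31.41% ± 5.24 and 36.999% ± 6.09, and in CLP 24.3% ± 3.69 and 30.5% ± 4.80 (n = 4 each), all overlapping. The mean was higher in Tet2-/- in 6 of 6 populations, but over the 48 tests of composition made (8 measures in 6 populations) the lowest adjusted p of the exact permutation test was 0.152, so none passed. No exact p could go below 0.0286, so 28 of the 48 would have to reach it for any to pass, and 8 did. Without Tet2-/- replicate 2 the GMP difference fell from 5.59 to 2.74 percentage points. By mouse the rRNA share of mitochondrial counts was 9.76 percentage points higher in Tet2-/-, and all 4 Tet2-/- mice lay above all 4 WT mice (exact permutation p = 0.0286, adjusted over 8 measures 0.0762). The amount of nuclear rRNA reads also moved between these libraries, and its part in the result was not tested. In the Tet2-/- LT-HSC libraries whose nuclear rRNA loci had 91453 and 29707 CPM, the mitochondrial rRNA share was 48.1% and 45.3%, and in those with 68.2 and 59.8 CPM it was 34.8% and 48.5%.

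Per library, mt-Rnr1 stood at 2616, 2196 and 2787 CPM in WT LT-HSC and at 3859, 5717, 7884 and 13551 CPM in Tet2-/- LT-HSC. In ST-HSC it stood at 2700, 1619 and 2720 CPM against 6279, 7855, 8526 and 6411 CPM. In CMP it stood at 1352, 883, 958 and 899 CPM against 2559, 2153, 1958 and 2853 CPM. Every Tet2-/- library was above every WT library of its population in these 3 populations. In GMP it stood at 672, 627, 652 and 494 CPM against 1165, 1201, 1090 and 949 CPM, and in MEP at 1585, 1199, 1103 and 907 CPM against 2879, 2180, 1795 and 2620 CPM. These groups did not overlap either. In CLP it stood at 556, 291, 335 and 278 CPM against 4774, 1413, 457 and 849 CPM, where Tet2-/- replicate 4 fell within the WT range. The summed level of 4 RNAs that lack an A tail (Rn7sk, Rmrp, Rpph1 and Terc) followed mt-Rnr1 within some groups, and its part in the result was not tested. In Tet2-/- LT-HSC it was 9.06, 14.03, 24.02 and 41.1 CPM, in the order of the mt-Rnr1 values above, and in Tet2-/- CLP 10.4, 7.79, 4.02 and 5.92 CPM. Between genotypes it overlapped in all 6 populations, and its mean was higher in Tet2-/- in LT-HSC, ST-HSC, CMP and CLP and lower in GMP (6.15 against 6.98 CPM) and MEP (12.5 against 41.7 CPM).

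edgeR gave mt-Rnr1 a log2 fold change of 1.24 ± 0.18 (SE) in CMP with an adjusted p of 0.0032, the only call among the 36 mitochondrial genes tested there (call rule: adjusted p under 0.05 and at least 2-fold). In that comparison 4.57% of all genes tested were called in either direction and 0.654% were called higher. At the same adjusted p without the 2-fold limit, mt-Rnr1 also passed in GMP (0.86 ± 0.12, adjusted p 0.0012) and in MEP (0.98 ± 0.19, adjusted p 0.017). It was 1.69 ± 0.41 in LT-HSC, 1.72 ± 0.25 in ST-HSC and 1.69 ± 0.60 in CLP, which did not pass in edgeR. mt-Rnr2 passed without the 2-fold limit in CMP (0.76 ± 0.16, adjusted p 0.018) and MEP (0.50 ± 0.11, adjusted p 0.023), and stood at 1.14 in LT-HSC and 1.28 in ST-HSC, where it did not pass. In all, 5 mitochondrial genes passed higher in CMP without the 2-fold limit, 1 in GMP and 2 in MEP, and none lower, where 1.71%, 1.07% and 0.656% of all genes tested passed higher. When all 46 libraries shared 1 model, the call of mt-Rnr1 in CMP was lost (adjusted p 0.078), mt-Rnr2 was called in ST-HSC (adjusted p 0.035), and 3 genes were called in CLP, mt-Rnr1 among them (adjusted p 0.0022).

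In the other 5 populations edgeR called no mitochondrial gene between genotypes. In LT-HSC 0 of 37 were called, 3 had an unadjusted p under 0.05, and 0.0245% of all genes were called. DESeq2 called 2 there, and 0.963% of all genes it was run on. In ST-HSC 0 of 36 were called, 2 had an unadjusted p under 0.05, and the background was 0.0185%. DESeq2 called 2 there, with a background of its own of 1.33%. The low edgeR backgrounds mean that few genes of any kind passed in the stem cells. In GMP 0 of 36 were called, 4 had an unadjusted p under 0.05, DESeq2 called 0, and the backgrounds were 4.38% in edgeR and 3.93% in DESeq2. In MEP 0 of 36 were called, 3 had an unadjusted p under 0.05, DESeq2 called 1, and the backgrounds were 4.36% and 3.98%. In CLP 0 of 33 were called, 1 had an unadjusted p under 0.05, DESeq2 called 0, and the backgrounds were 0.00766% and 2.01%.

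The ratio of the 2 rRNAs also differed. The log2 of mt-Rnr2 counts over mt-Rnr1 counts had a lower mean in Tet2-/- in all 6 populations, by 0.41 in LT-HSC, 0.44 in ST-HSC, 0.47 in CMP, 0.49 in MEP and 0.58 in CLP. In GMP it ran from 3.84 to 4.13 in Tet2-/- libraries and from 3.96 to 4.74 in WT libraries. The genotypes did not overlap in ST-HSC, CMP and CLP, but no adjusted p of the exact permutation tests was under 0.152. By mouse the difference was -0.48 (exact permutation p = 0.0286, adjusted over 8 measures 0.0762). The 3 libraries with few nuclear rRNA counts had the 3 lowest ratios of all, between 2.07 and 2.41, against 2.79 to 4.74 in the other 43. Without them the LT-HSC difference turned to 0.06 (exact permutation p = 0.8), so the lower mean in LT-HSC rested on Tet2-/- replicates 4 and 5, and it was -0.20 without replicate 5 alone and -0.62 without replicate 2. The ST-HSC difference was -0.32 without replicate 4, still without overlap, and CMP, CLP, GMP and MEP hold none of these libraries. The CLP difference was -0.37 without Tet2-/- replicate 2. By mouse the difference was -0.41 without the 3 libraries, at the same exact permutation p.

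**Figure D3:**
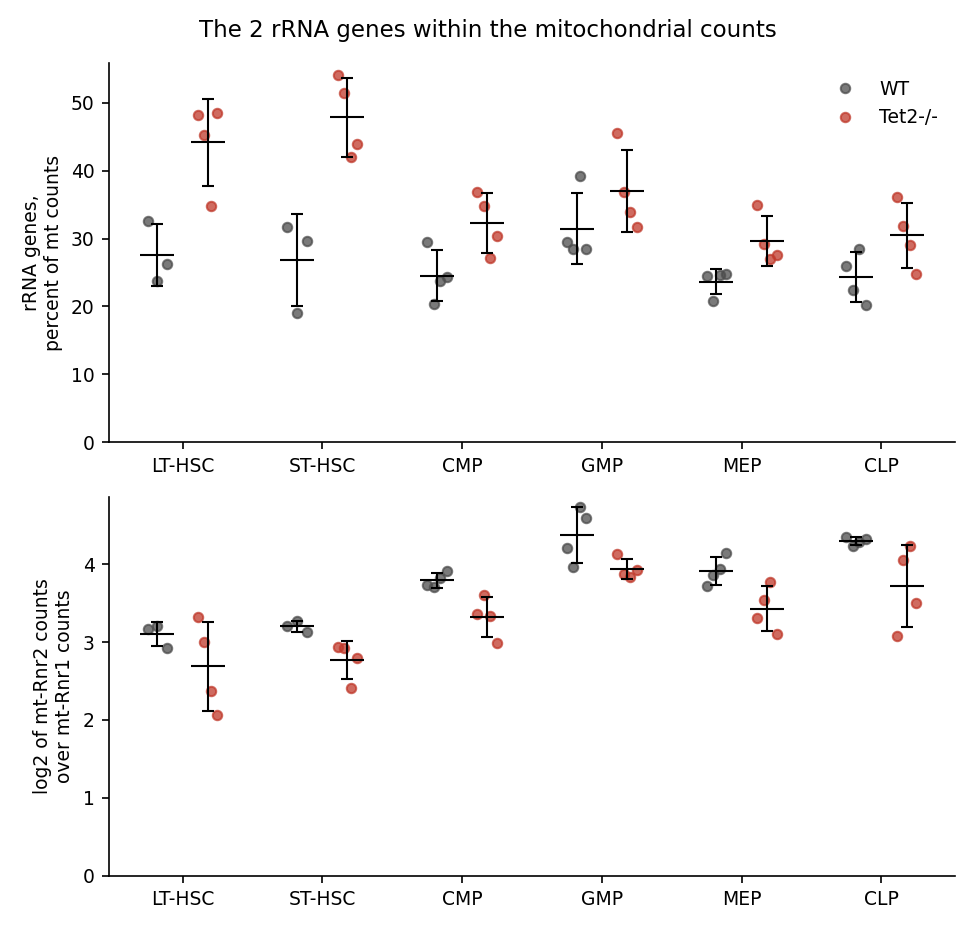
Percent of the mitochondrial counts that came from mt-Rnr1 and mt-Rnr2 (top) and log2 of mt-Rnr2 over mt-Rnr1 counts (bottom), 1 point per library, WT in grey and Tet2-/- in red, with mean and SD. The Tet2-/- means are higher in the upper panel and lower in the lower panel in all 6 populations, in LT-HSC's lower panel through the 2 lowest Tet2-/- points.

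Of the 13 protein genes, 3 passed between genotypes, all in CMP. There mt-Nd5 (0.38 ± 0.09, adjusted p 0.031), mt-Nd3 (0.49 ± 0.12, adjusted p 0.034) and mt-Co1 (0.27 ± 0.07, adjusted p 0.036) rose at the edgeR adjusted p without reaching 2-fold. mt-Nd5 stood at 2187, 2054, 2044 and 1780 CPM in WT CMP and at 2343, 2720, 2674 and 2615 CPM in Tet2-/- CMP, and mt-Co1 at 12724 to 13169 CPM against 14256 to 16995 CPM. mt-Nd1 also did not overlap in CMP (0.34 ± 0.09, adjusted p 0.064), so that 4 of 13 protein genes did not, where 15.5% of all genes tested did not overlap. In the other 5 populations all 13 protein genes overlapped between genotypes, where 7.5% (LT-HSC), 8.62% (ST-HSC), 12.7% (GMP), 12.9% (MEP) and 7.04% (CLP) of all genes did not, and none passed. Over all mitochondrial genes tested, every Tet2-/- library was above every WT library for 3 of 37 in LT-HSC, 4 of 36 in ST-HSC, 9 of 36 in CMP, 5 of 36 in GMP, 3 of 36 in MEP and 3 of 33 in CLP, and none was below. Of all genes 2.47%, 2.88%, 5.98%, 4.32%, 4.31% and 6.32% were above in this way. The mitochondrial genes of a library share its total, so they are not independent of each other. The log2 fold changes over all populations ran from -0.58 (mt-Atp6 in ST-HSC) to 0.66 (mt-Nd3 in CLP). The former was -0.27 without Tet2-/- ST-HSC 3, a library in which mt-Atp6 was low beside its nuclear copy. The median over all mitochondrial genes tested was 0.25 in LT-HSC, 0.25 in ST-HSC, 0.29 in CMP, 0.13 in GMP, 0.12 in MEP and 0.53 in CLP, beside medians over all genes tested of 0.06, 0.04, 0.03, 0.03, 0.05 and 0.07.

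The shares of the complexes among the counts of the protein genes were also compared between genotypes. Complex IV genes took 42.2% ± 0.53 (n = 3) in WT LT-HSC and 47.2% ± 0.55 (n = 4) in Tet2-/- LT-HSC, and 43.3% ± 0.31 against 47.1% ± 2.79 in ST-HSC, without overlap. The mean was higher in Tet2-/- in 5 of 6 populations and 0.57 percentage points lower in CMP, a difference of -0.0095 without Tet2-/- replicate 5 and -0.15 without WT replicate 4. The GMP difference (0.64) was 0.10 without WT replicate 4. mt-Cytb, the complex III gene, took 19.5% ± 0.64 against 16.5% ± 1.36 in LT-HSC and 17.9% ± 0.61 against 16.2% ± 1.40 in ST-HSC, again without overlap, though the ST-HSC difference shrank from -1.76 to -1.08 percentage points without Tet2-/- replicate 2. It was lower in Tet2-/- in GMP (-0.16) and CLP (-0.79) as well, and higher in CMP (0.20) and MEP (0.35), but these 4 rested on single libraries. The MEP difference was 0.0091 without WT replicate 4 and the CLP one -0.22 without WT replicate 3, CMP changed sign without WT replicate 4 or Tet2-/- replicate 5, and GMP without replicate 3 of either genotype. The complex V pair was lower in Tet2-/- in 6 of 6 populations, with 13.8% ± 0.55 against 10.8% ± 1.21 in LT-HSC and 13.8% ± 0.65 against 11.96% ± 0.86 in MEP, neither overlapping. In CLP that direction rested on single libraries, as the complex V difference turned to 1.45 percentage points higher without Tet2-/- replicate 2, 0.59 without WT replicate 4 and 0.27 without WT replicate 5. The complex I share was higher in Tet2-/- in 5 of 6 populations and did not overlap in ST-HSC (24.8% against 27.2%) and GMP (28.1% against 29.2%). Its difference turned to -0.01 percentage points in MEP without WT replicate 5, and in CLP, where it was lower, to 0.10 without WT replicate 3. None of these passed after adjustment over the 48 exact permutation tests. In Tet2-/- ST-HSC replicate 3 mt-Atp6 was low beside its copy, and its counts are part of the total behind all these shares. That library had the highest ST-HSC shares of complex IV (50.7%) and complex I (28.4%). Without it the ST-HSC genotypes still did not overlap in either share. By mouse, complex IV was 1.83 percentage points higher in Tet2-/- (exact permutation p = 0.0286, adjusted over 8 measures 0.0762) and complex V 2.00 points lower (exact permutation p = 0.0571, adjusted 0.114). Complex III was 0.71 points lower by mouse (exact permutation p = 0.143, adjusted 0.19), and 0.38 lower without WT replicate 3.

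**Figure D4:**
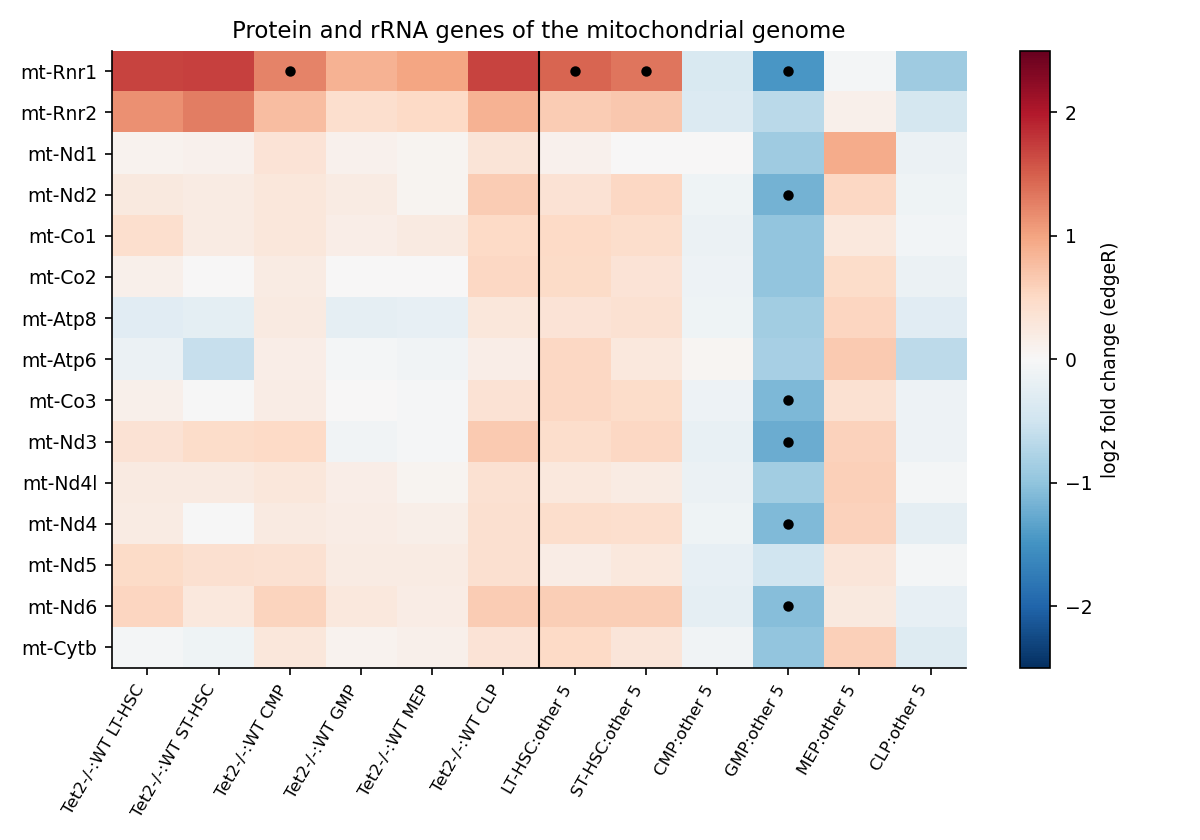
edgeR log2 fold changes of the 13 protein and 2 rRNA genes (rows, in map order) in the 6 comparisons of Tet2-/- with WT and the 6 comparisons of a population with the other 5 (columns), with black dots for calls at adjusted p under 0.05 and at least 2-fold. mt-Rnr1 and mt-Rnr2 are positive in all 6 genotype columns, and all 15 genes are negative in GMP.

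Compared with the other 5 populations in 1 edgeR model of all 46 libraries, GMP had 6 of 37 mitochondrial genes called lower and none higher, where 23.9% of all genes were called in either direction and 4.12% lower. They were mt-Rnr1 (-1.46 ± 0.22), mt-Nd3 (-1.24 ± 0.16), mt-Nd2 (-1.18 ± 0.14), mt-Co3 (-1.12 ± 0.13), mt-Nd4 (-1.11 ± 0.12) and mt-Nd6 (-1.06 ± 0.17), with adjusted p from 4.0e-09 to 3.1e-06. mt-Nd4 ran from 1498 over a median of 1861 to 2121 CPM in GMP, below every library of LT-HSC, ST-HSC, CMP and MEP (lowest 2984 CPM). At the adjusted p alone 17 of 37 were lower, among them all 13 protein genes, where 9.83% of all genes were lower. The median of the 37 genes was -0.67 and that of all genes 0.22. mt-Nd6 lost its call with WT libraries only and without WT or Tet2-/- replicate 2, and mt-Nd3 with WT libraries only.

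In the stem cells the small rRNA was called higher. mt-Rnr1 was 1.46 ± 0.18 in LT-HSC (adjusted p 1.4e-07) and 1.33 ± 0.19 in ST-HSC (adjusted p 9.8e-07), and these calls held in all 15 alternatives of each. It ran from 2196 over 3859 to 13551 CPM in LT-HSC and from 1619 over 6279 to 8526 CPM in ST-HSC, while its median in GMP was 810 CPM and in CLP 506 CPM. In LT-HSC 2 of 37 genes were called, with 17.9% of all genes called in either direction and 13.6% higher, and in ST-HSC 1 of 37, with 17.4% and 12.9%. At the adjusted p alone 13 of 37 were higher in each and none lower, where 18.1% of all genes were higher in LT-HSC and 17.4% in ST-HSC. In CMP 0 of 37 were called and 1 had an unadjusted p under 0.05 in edgeR, DESeq2 also called 0, and the backgrounds were 6.67% in edgeR and 7.02% in DESeq2.

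The other LT-HSC call, the tRNA gene mt-Ts2 (chrM:11613-11671; 2.16 ± 0.58, adjusted p 0.0047), rested on 3 libraries. It had 2, 2 and 2 counts in WT LT-HSC and 48, 1, 33 and 41 in Tet2-/- LT-HSC. Of the 46 libraries 5 had 10 or more counts, all Tet2-/-, the others being Tet2-/- ST-HSC 2 with 15 and Tet2-/- CMP 2 with 64. The other 41 libraries had at most 2 counts, and 5 had none. A count of 0 allows a level of up to 0.0294 to 0.0595 CPM depending on the library (3 counts of its total), and this covers counting error only. Whether a count at a tRNA gene came from the tRNA or from a longer RNA that spans it is not resolved by the table.

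MEP had more counts from many mitochondrial genes. 3 of 37 were called higher and none lower, with a background of 19.4% in either direction and 9.83% higher, all of them tRNA genes. These were mt-Tt (1.35 ± 0.25, adjusted p 3.5e-05), mt-Tp (1.18 ± 0.21, adjusted p 2.0e-05) and mt-Tl1 (1.08 ± 0.20, adjusted p 5.9e-05). mt-Tt and mt-Tp, the tRNA genes for threonine and proline, are neighbours behind mt-Cytb on opposite strands (chrM:15289-15355 and chrM:15356-15422). mt-Tp ran from 5.73 over 10.5 to 13.2 CPM in MEP, against 3.61 over 6.41 to 8.44 CPM in LT-HSC, so the ranges overlapped. mt-Tl1, printed above with its neighbours, lost its call with DESeq2, with another scaling (RLE) and with WT libraries only. At the adjusted p alone 19 of 37 were higher, where 17.2% of all genes were, and the protein gene with the largest difference was mt-Nd1 (0.94 ± 0.12, adjusted p 7.0e-08). mt-Nd1 ran from 7628 to 11287 CPM in MEP, its neighbour across mt-Tl1, mt-Rnr2, did not pass (0.12 ± 0.13, adjusted p 0.62), and the median of the 37 genes was 0.53 beside -0.08 for all genes.

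In CLP 6 of 37 genes were called, all tRNA genes, 5 of them lower and 1 higher, where 27.7% of all genes were called, 11.6% lower and 16.1% higher. mt-Tt (-1.87 ± 0.31, adjusted p 6.5e-06) had 27, 16, 5 and 38 counts in WT CLP and 98, 228, 75 and 80 in Tet2-/- CLP, and was called in all 15 alternatives. mt-Tv, mt-Tm and mt-Th were called lower too, each losing the call in 4 or more alternatives. The log2 fold change of mt-Tm was -1.002, while the others had too few counts in CLP for a fold to be given. mt-Tv had 1 to 10 counts in 7 of the 8 CLP libraries and 33 in Tet2-/- CLP 5, and mt-Th had 0 to 6 counts in 7 of the 8 CLP libraries and 45 in Tet2-/- CLP 2. The remaining call, mt-Ts2, compares counts of 0 to 2 in CLP with the few Tet2-/- libraries of other populations named above, so nothing is read from it. mt-Td was called higher (1.94 ± 0.48, adjusted p 0.0012), but it had 640 counts in WT CLP 4 and between 2 and 54 in all other libraries. Without the WT mice's replicate 4 it turned to -0.77, and with Tet2-/- libraries only to -0.45. At the adjusted p alone 17 of 37 were lower and 1 higher, where 17.8% of all genes were lower and 20.1% higher, and the median of the 37 was -0.65 beside -0.27 for all genes.

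The relative amounts of the genes within the mitochondrial counts differed between populations. Of 8 measures of composition 6 passed a permutation test with 100000 resamples within genotype, and 4 of them had the smallest p it can give, 1e-05. Populations accounted for 77.9% of the variance of the complex I share of protein-gene counts, 75.9% of that of the log2 ratio of mt-Rnr2 to mt-Rnr1 and 73.8% of that of the complex IV share. The complex I share was lowest in LT-HSC (25.0% ± 1.19, n = 7) and highest in MEP (30.6% ± 0.66, n = 8), whose ranges did not overlap. The complex IV share was lowest in MEP (38.3% ± 1.07) and close to 45% in LT-HSC, ST-HSC and CLP (45.1% ± 2.70, 45.5% ± 2.87 and 45.5% ± 2.02). The log2 ratio of mt-Rnr2 to mt-Rnr1 ran from 2.87 ± 0.47 in LT-HSC and 2.95 ± 0.29 in ST-HSC over 3.56 ± 0.31 in CMP and 3.67 ± 0.34 in MEP to 4.01 ± 0.47 in CLP and 4.16 ± 0.34 in GMP. The tRNA share, the rRNA share and the complex III share passed as well (62.4%, 43.3% and 31.3% of the variance), while the complex V and mt-Nd6 shares had an adjusted permutation p of 0.0626. In WT libraries alone the rRNA share did not pass (adjusted permutation p = 0.207), and without CLP the complex III share did not pass (adjusted permutation p = 0.225). With libraries of the same mouse blocked the mt-Nd6 share passed (adjusted permutation p = 0.0191), and in WT libraries alone the complex V share did (adjusted permutation p = 0.0492).

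Nuclear genes that serve the mitochondrial genome were read from lists written with earlier results of these data known. List A held 20 genes of transcription and replication of mitochondrial DNA, list B 24 genes for processing, decay and modification of its RNA, and list C 86 nuclear subunits of complexes I to V. In MEP, 75 of the 83 list C genes tested were higher at the adjusted p (25 past 2-fold) and 1 lower, with a median of 0.82, where 17.2% of all genes were higher and 9.83% past 2-fold. In GMP 35 were lower and 10 higher, where 9.83% of all genes were lower and 24.8% higher. In CLP 53 were lower and 6 higher, where 17.8% of all genes were lower and 20.1% higher. The list C medians were -0.26 in GMP and -0.51 in CLP. In MEP 0 of 20 list A and 6 of 24 list B genes were called higher and none lower. They included Rexo2 (1.85), an RNase of short RNAs, and Fastkd2 (1.39) and Lrpprc (1.23), which process or stabilise mitochondrial RNA. Lrpprc means were 82.5 CPM in WT and 102 CPM in Tet2-/- MEP, beside 112 and 41.6 CPM in GMP, so WT GMP stood above WT MEP. Fastkd5 was called higher in MEP as well, but its means there (25.3 CPM in WT and 30.6 CPM in Tet2-/-) were near those in GMP (27.4 and 26.9 CPM), and the comparison includes CLP, where it was close to 0, so no fold is given. In GMP 3 of 20 list A genes were called higher and 1 lower, and 5 of 24 list B genes higher and 1 lower, where 19.8% of all genes were called higher and 4.12% lower. Of these, Top3a (2.08), Elac2 (1.76), which cuts tRNAs at their 3′ ends, Polrmt (1.53), the mitochondrial RNA polymerase, and Top1mt (1.502) were higher, and Mterf2 (-1.44) and Hsd17b10 (-1.03) were the 2 called lower.

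In LT-HSC 0 of 20 list A genes were called higher and 1 lower, and of 24 list B genes 1 higher and 3 lower, where 13.6% of all genes were called higher and 4.32% lower. Rexo2 (-1.67), Pnpt1 (-1.33) and Top3a (-1.24) were called lower and Hsd17b10 (1.15), a part of mitochondrial RNase P, higher. Top3a means were 3.32 CPM in WT and 5.58 CPM in Tet2-/- LT-HSC. They were near these in ST-HSC (3.23 and 9.27 CPM) and MEP (5.10 and 5.14 CPM), and higher in GMP (25.7 and 32.3 CPM). Rexo2 (-2.502) and Supv3l1 (-1.78), the helicase that works with Pnpt1 in RNA decay, were the only 2 genes of lists A and B called in ST-HSC, both lower, where 4.59% of all genes were called lower. Supv3l1 means were 9.23 CPM in WT and 3.85 CPM in Tet2-/- ST-HSC, beside 9.10 and 8.87 CPM in LT-HSC. In CLP 2 of 20 list A genes were called higher and 2 lower, and of 24 list B genes 1 higher and 5 lower, where 16.1% of all genes were called higher and 11.6% lower, so the list A counts are near the background. Rexo2 (2.37) was higher. Grsf1, Twnk and Fastkd5 were called lower, but no fold is given because some CLP libraries were at or near 0. Grsf1 stood at 0 to 17.9 CPM in WT CLP and 2.89 to 13.1 CPM in Tet2-/- CLP, and Twnk at 0 to 11.997 CPM and 0.22 to 28.7 CPM. Fastkd5 stood at 0 to 0.065 CPM in WT CLP, and its mean of 6.71 ± 13.3 CPM (n = 4) in Tet2-/- CLP came with a range of 0 to 26.7 CPM. Tfam, which packages mitochondrial DNA and starts its transcription, stood at 121 ± 2.22 CPM (n = 3) in WT and 124 ± 17.9 CPM (n = 4) in Tet2-/- LT-HSC. No gene of lists A, B or C was called between genotypes in LT-HSC, ST-HSC or CLP by edgeR, but as only 0.0245%, 0.0185% and 0.00766% of all genes were called there, this says nothing about the lists.

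Between genotypes, 3 list C genes were called lower in each of CMP (of 81 tested), GMP (of 81) and MEP (of 79), and none higher. This is near the share of all genes called lower, 3.92% in CMP, 4.07% in GMP and 4.21% in MEP, so it is no result about the list. Uqcrfs1 and Cyc1, complex III subunits that carry electrons, were lower in Tet2-/- CMP (-3.13 and -2.40) and MEP (-3.67 and -2.82), as was the complex IV subunit Cox5a (-2.93 and -4.05). In GMP the log2 fold changes of Uqcrfs1, Cyc1 and Cox5a were -2.60, -1.02 and -1.31. Their summed level was 779 to 835 CPM in WT CMP, 808 to 933 CPM in WT GMP and 1105 to 1233 CPM in WT MEP, against 81.5 to 161 CPM, 255 to 377 CPM and 82.6 to 158 CPM in the Tet2-/- libraries. In LT-HSC and ST-HSC it was 30.1 to 91.9 CPM in both genotypes, and in CLP 197 to 445 CPM in WT (281 ± 113, n = 4) and 435 to 476 CPM in Tet2-/- (452 ± 17.5, n = 4), where the ranges overlapped. In CMP, GMP and MEP the low and high levels divided the libraries exactly by genotype label, so genotype and any other difference between those libraries cannot be told apart. The mitochondrial complex III gene mt-Cytb did not go with them (0.28 ± 0.08 in CMP, adjusted p 0.083, and 0.12 ± 0.14 in MEP, adjusted p 0.80). Of lists A and B, Mrm1 (-1.85), an rRNA methylase, was called lower in CMP, Rexo2 (-1.57) and Lrpprc (-1.41) in GMP and Polg2 (-2.02) in MEP.

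Copies of mitochondrial genes in the nuclear genome drew a large number of counts. 7 nuclear genes, all on chromosome 1 between 24611535 and 24616197 on the minus strand (mm10), match mitochondrial genes almost base for base. Gm10222 (mt-Nd4l), Gm10925 (mt-Atp6), Gm28437 (mt-Co3), Gm28661 (mt-Co2) and Gm28439 (the first 876 bases of mt-Nd4) are identical to the mitochondrial sequence over their aligned length. Gm28438 differs from mt-Nd3 by T3C and Gm29216 from mt-Co1 by A1066T, with positions counted from the mitochondrial gene's first base and the mitochondrial base named first. Together they took 0.612% to 3.05% of all counts. The count of mt-Co3 was within 1% of that of Gm28437 in 44 of the 46 libraries (median ratio 0.999), and that of mt-Co2 within 1% of Gm28661 in 41 (median ratio 1.01). Reads from identical sequence cannot be told apart, and how they were assigned is not given in the sources used here, so the levels of mt-Co2, mt-Co3, mt-Atp6, mt-Nd3, mt-Nd4l, mt-Nd4 and mt-Co1 are uncertain by the part that went to the copies. mt-Atp8 shares its last 43 bases with mt-Atp6 and so with Gm10925. Whether the rest of mt-Atp8 has a copy on chromosome 1 outside the annotated genes was not tested, so its level is uncertain too.

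mt-Atp6 left this pattern in 3 libraries. In 43 libraries it had 0.864 to 0.993 of the counts of its identical copy Gm10925. In Tet2-/- ST-HSC 3 it had 81341 counts beside 393614, in WT CLP 3 32138 beside 149961, and in Tet2-/- CLP 2 140513 beside 608951, that is 0.207 to 0.231 of the copy. Its overlapping neighbour mt-Atp8 was not low there, since the counts of Gm10925 were 6.21 to 6.29 times those of mt-Atp8, within the 4.26 to 7.30 of the others. These 3 libraries are in both genotypes, and they hold the complex V shares of 3.81%, 4.02% and 4.12% that lie below all others (9.81% or more). Without replicate 3, the Tet2-/- ST-HSC complex V difference shrank from -4.56 to -2.67 percentage points, and the shares were 9.99%, 12.3% and 11.8%, still below the WT values of 14.2%, 13.1% and 14.8%.

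**Figure D5:**
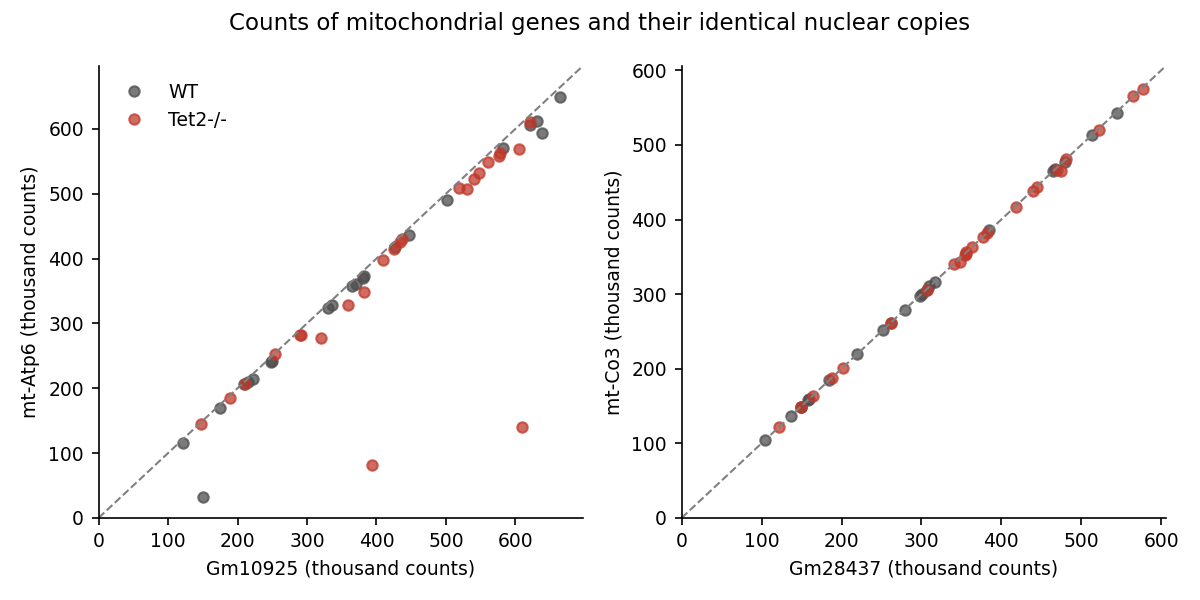
Counts of mt-Atp6 against its nuclear copy Gm10925 (left) and of mt-Co3 against Gm28437 (right) in units of 1000 counts, 1 point per library, WT in grey and Tet2-/- in red, with a dashed line at equal counts. mt-Co3 follows the line in every library, while mt-Atp6 falls far below it in 3 libraries, at 0.207 to 0.231 of the copy.

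The second table lists only the 13 protein genes of the mitochondrial genome among 35976 genes. Their share of counts was 1.23%, 1.99% and 1.64% in WT LT-HSC, 2.44%, 1.97% and 1.80% in Sting-/- LT-HSC and 2.37%, 1.85% and 1.75% in Tet2;Sting DKO LT-HSC. The 3 groups overlapped, and the exact two-sided permutation p was 0.3 for Sting-/- against WT, 0.4 for Tet2;Sting DKO against WT and 0.7 between the mutants, where 3 against 3 libraries cannot go below 0.1. The composition was unlike that of the first table. mt-Co2, mt-Atp8, mt-Atp6, mt-Co3, mt-Nd3 and mt-Nd4l made up 0.552% to 0.596% of the protein-gene counts in its 9 libraries, against 24.6% to 30.6% in the 7 LT-HSC libraries of the first table. Each of them except mt-Atp8 has a copy among the annotated genes on chromosome 1, as do parts of mt-Nd4 and mt-Co1. mt-Atp8 shares 43 bases with mt-Atp6 and its copy, and a copy of the rest was not looked for. mt-Cytb took 39.9% ± 2.96 (n = 9) against 17.8% ± 1.91 (n = 7), and mt-Co1 31.7% ± 2.93 against 30.4% ± 3.11. The tables were counted separately, so levels and shares were not tested across them.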

How the data were processed

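RNA of sorted populations was amplified from oligo-dT primers by a SMART-Seq2 type protocol. The deposited values were raw counts per gene, which the authors made by trimming with Trim Galore (0.5.0 in the study's methods, 0.6.7 in the submitters' processing notes) and aligning with HISAT2 (2.1.0 and 7.5.0 in the same sources) to mm10, with mm9 also listed in the notes. The counting program, its annotation, its use of strand and its treatment of reads with several matches are not given in the sources used here. The symbol rule for the mitochondrial genes uses no measured value, but this group of genes, like the nuclear lists, was chosen for description with earlier results of these data known.

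Shares were percent of all counts of a library and were tested on the log2 scale by exact two-sided permutation tests (scipy 1.17.1), with Benjamini-Hochberg adjustment over the family named beside each p. Genes were tested over the whole table with edgeR 4.0.16 (TMM scaling, low-count filter, quasi-likelihood test) in R 4.3.3, each Tet2-/- against WT comparison in its own libraries and each population against the other 5 in 1 model of 46 libraries. Calls needed at least a 2-fold change and an adjusted p under 0.05. DESeq2 1.42.0 was an alternative. The code was tested on simulated data. Named genes were the 13 protein and 2 rRNA genes, the 5 tRNA genes with the most counts, any called tRNA gene, and the called nuclear list members of largest fold change, at most 4 per comparison. Cyc1 in GMP and MEP, Mterf2 and Hsd17b10 in GMP, Tfam and the copies were added after their values were seen.

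Library totals of the main table had a median of 70118186 counts. Wilson intervals (95%) and floors of 3 counts cover counting error only, since the counts are not of molecules. No 2 libraries of a group held the same counts, the lowest chi-square per gene over 66 pairs being 86.3. Libraries of different populations with the same number and genotype were treated as 1 mouse, a reading of the titles that no source used here states, and the median correlation of their deviations was 0.0197 to 0.0896 per mouse.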

Additional observations from a re-analysis of the deposited data

Results flagged for a closer look

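Within groups of 4 libraries, 310 combinations of group and measure were examined for a library that stood apart from the other 3, and 19 did, where chance marks about 1 in 20. In WT CMP, replicate 3 had the highest tRNA share of mitochondrial counts (0.138%), the highest mt-Atp6 (5638 CPM) and the highest mt-Tc (8.77 CPM), and replicate 2 the highest mt-Rnr1 (1352 CPM). Tet2-/- CMP replicate 4 had the highest mt-Tm (10.7 CPM). In WT GMP, replicate 4 stood above the others in the rRNA share of mitochondrial counts (39.2%), in mt-Atp8 (821 CPM) and in mt-Tn (13.7 CPM). Tet2-/- GMP replicate 2 stood below the others in the share of all counts from protein genes (2.57%), in mt-Co1 (7162 CPM), in mt-Co2 (1214 CPM) and in mt-Co3 (2012 CPM), and Tet2-/- GMP replicate 3 had the lowest mt-Tn (5.64 CPM). WT MEP replicate 3 had the lowest rRNA share of mitochondrial counts (20.8%). In CLP, WT replicate 4 had the highest tRNA share (0.138%, where mt-Td had 640 counts), and WT replicate 2 the highest mt-Nd4 (2403 CPM) and mt-Nd6 (267 CPM). Tet2-/- CLP replicate 2, the library with the fewest B-cell gene counts, had the highest complex I share (30.4%) and the lowest complex V share (4.12%) of the protein-gene counts, in a library where mt-Atp6, whose counts are part of the total behind both shares, was low beside its copy. No measure moved in opposite directions in all libraries of 2 populations.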

How the results depend on the processing

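The Tet2-/- share differences kept their sign except with the 13 protein genes only. These turned in ST-HSC (-0.0803, and -0.0682 with numbers 2 and 3 and numbers 4 and 5 apart). In numbers 2 and 3 alone they were negative in LT-HSC (-0.23), ST-HSC (-0.28) and MEP (-0.17). With 1 library left out the 37-gene differences ran from 0.34 to 0.58 in LT-HSC, 0.36 to 0.49 in ST-HSC, 0.38 to 0.42 in CMP, 0.13 to 0.24 in GMP, 0.14 to 0.29 in MEP and 0.64 to 1.31 in CLP. The 2 rRNA genes alone passed in LT-HSC (1.11), ST-HSC (1.27), CMP (0.80) and MEP (0.54), where all 37 genes did not. By mouse the difference was 0.42 to 0.49 without any 1 mouse, and 0.45 with an exact permutation p of 0.0571 over the 4 full populations. For the 13 protein genes it was 0.0921 without CLP and 0.165 without immunoglobulin genes in the total, neither passing (exact permutation p 0.543 and 0.0857). Of the 15 pairs of populations, 10 to 13 passed without any 1 mouse. In Tet2-/- libraries only 0 did, where 8 reached the smallest exact p (0.0286) without overlap and 9 would have been needed. Without a library, Tet2;Sting DKO against Sting-/- ran from -0.19 to 0.0676. Other changes of sign were ST-HSC against MEP by protein genes (-0.0044), LT-HSC against ST-HSC in WT libraries only (-0.0055) or without 1 mouse (-0.0475 to 0.0411), and GMP against CLP by protein genes (-0.0434), in Tet2-/- libraries only (-0.29), without immunoglobulin genes (-0.35) or without 1 mouse (-0.055 to 0.287). The genotype effect minus the mean of the other 5 populations changed sign without immunoglobulin genes in LT-HSC (0.0641), ST-HSC (0.0405) and CMP (0.0194), by protein genes in CMP (0.0328), and without 1 mouse in LT-HSC (-0.146 to 0.177) and ST-HSC (-0.121 to 0.0749).

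In composition, 96 of the 432 differences with 1 library or mouse left out moved by over 1.5 times, and the log2 ratio of mt-Rnr2 to mt-Rnr1 in LT-HSC turned to 0.0605 without the 3 libraries of few nuclear rRNA counts. Differences in percentage points changed sign without 1 library for the tRNA share in MEP (-0.0075 to 0.0014) and CLP (-0.0238 to 0.0062), complex I in MEP (-0.0127 to 0.609) and CLP (-1.21 to 0.105), complex III in CMP (-0.135 to 0.438) and GMP (-0.497 to 0.177), complex V in CLP (-2.51 to 1.45) and mt-Nd6 in MEP (-0.0193 to 0.138). Against the other 5 populations, mt-Rnr2 in MEP turned with RLE scaling (-0.0018) and Tet2-/- libraries only (-0.0755), and mt-Td in CLP with Tet2-/- libraries only (-0.45) or without WT replicate 4 (-0.77, with up to 2.17 without another mouse). Of 2850 further values of named genes in comparisons not given in the text, 160 changed sign, none of them past the call rule.

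Between genotypes, DESeq2 called 2 mitochondrial genes in LT-HSC, 2 in ST-HSC and 1 in MEP, and 1 model of all libraries called 1 in ST-HSC, 0 in CMP and 3 in CLP. Without 1 library, MEP had 0 to 1 calls (1 without WT 2, Tet2-/- 3 or Tet2-/- 4). Against the other 5 populations, LT-HSC had 1 call in WT libraries only, ST-HSC 3 with the library size of nuclear genes, and CLP 19 with that size, 3 with DESeq2 and 2 in Tet2-/- libraries only. Without 1 mouse's libraries LT-HSC had 1 to 2 (1 without Tet2-/- 2), ST-HSC 1 to 2 (2 without Tet2-/- 5), GMP 5 to 9, MEP 3 to 4 and CLP 2 to 13 (2 without Tet2-/- 4, 3 without WT 3, 13 without Tet2-/- 2). The causes were not tested.

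The labels do not say what a number shared by a WT and a Tet2-/- library marks. Over all genes the deviations of same-numbered libraries correlated by -0.0508 to 0.108 (1 of 22 over 0.1), so they were not treated as pairs, but 10 of 22 correlated best with their own number, in MEP 4 of 4, a hint from the data. With numbers 2 and 3 and numbers 4 and 5 compared apart and averaged, the difference by mouse was 0.451 (0.236 for the protein genes, 0.891 for the rRNA genes) at an exact permutation p of 0.0556, the smallest this design allows. With the replicate block the share differences were 0.36, 0.37, 0.39, 0.21, 0.22 and 0.99 in LT-HSC, ST-HSC, CMP, GMP, MEP and CLP, and mitochondrial calls between genotypes stayed at 1 in CMP and 0 elsewhere. The libraries hold at most 4 per group, and 4 against 4 cannot give an exact p below 0.0286.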

Other observations

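The strand with few genes was set apart by 1 protein gene, mt-Nd6, whose share of the protein-gene counts had a higher mean in Tet2-/- than in WT libraries in 6 of 6 populations, from 0.07 percentage points in MEP to 0.27 in LT-HSC, with overlapping groups throughout. The sizes rested on single libraries, as the LT-HSC difference fell to 0.08 without Tet2-/- replicate 5, the ST-HSC one from 0.19 to 0.06 without replicate 2, and the CLP one from 0.097 to 0.012 and 0.0038 without replicates 2 and 5. The MEP difference turned to -0.02 without Tet2-/- replicate 2. By mouse the difference was 0.14 points with an exact permutation p of 0.343, so no difference was shown, and 0.07 without KO2. Around the population means, Tet2-/- mice ran from -0.11 to 0.28 points and WT mice from -0.16 to -0.025. The tRNA share of mitochondrial counts had a lower mean in Tet2-/- in 6 of 6 populations, again with overlap, though the difference changed sign in MEP without WT replicate 5 or Tet2-/- replicate 3 and in CLP without WT replicate 4. Its mean over both genotypes ran from 0.082% in CLP and 0.084% in LT-HSC to 0.127% in MEP and 0.136% in GMP.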
